A study of Mus musculus with 5 samples.

Results

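Secretory luminal alveolar cells are the milk-making epithelial cells of the mammary gland, and 1329 of the 34526 barcodes in the series were assigned to them. They were chosen by their own transcripts. A barcode was kept with at least 300 genes and at most 20% mitochondrial UMIs (unique molecular identifiers, each counting 1 captured transcript). It then needed Csn3, Trf and Wfdc18 summing to at least 30 UMIs per 10000 (CP10k), and Lalba and Csn1s1 summing to at least 3 CP10k. Barcodes with any UMI of the leukocyte gene Ptprc or the endothelial gene Pecam1 were left out, as were those with Prlr at 1 CP10k or more or with at least 3 of 6 mitosis genes detected. The levels of these 14 genes are therefore a description of the choice and carry no test.

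The study measured mouse mammary gland by droplet 3' sequencing of single cells in 4 gland libraries and 1 tumor library, and the rule covers the gland libraries. All mice carried Krt14cre, in which the keratin 14 promoter drives Cre, and Trp53 flox/flox. BPK mice were Brca1 wt/flox and PK mice Brca1 wt/wt. Glands had received 12 intraductal injections, either of the carcinogen 4NQO, whose metabolites bind to DNA, or of PBS/PEG as vehicle. The groups were BPK vehicle (1 library, 373 secretory cells), PK 4NQO (1 library, 628 cells) and BPK 4NQO (2 libraries, 220 cells in replicate 1 and 108 in replicate 2). No PK vehicle library was analysed here. The labels give no ages and do not say whether the 2 BPK 4NQO libraries came from separate animals, so p-values measure the spread between these libraries, which may be technical. Whether Cre had recombined the floxed alleles in the secretory cells was not measured here.

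In textbook terms, alveolar luminal cells descend from Elf5-positive luminal progenitors. Prolactin acting through its receptor, encoded by Prlr, and through the transcription factor STAT5 switches on caseins, lactalbumin and other milk genes in them. The 4 calcium-binding caseins and kappa casein (Csn3) form the milk micelle, and alpha-lactalbumin (Lalba) is the subunit that makes galactosyltransferase synthesise lactose. Trf and Ltf encode the iron carriers transferrin and lactoferrin. In virgin glands a minority of luminal cells carries milk transcripts at low levels without making milk. The requirement for low Prlr here separates these cells from the hormone-sensing luminal lineage, which carries the receptors for prolactin, estrogen and progesterone.

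The casein genes lie together on chromosome 5, and the STAT5 motif TTCNNNGAA, a palindrome with the same letters on both strands, was searched in their promoters. Among 14 milk protein genes with a RefSeq promoter (GRCm38.p6, 250 bases before to 50 after the start), the motif was found in 4, namely Csn1s1, Csn1s2a, Csn2 and Glycam1. Of the 32851 RefSeq promoters of this length, 8.30% held it. It was also in 7 of 13 interferon-gamma-induced and 3 of 13 interferon-stimulated genes with a promoter entry. The Csn1s1 promoter, chr5:87665958-87666207 on the plus strand, is shown because Csn1s1 helped choose the cells, and 28-base windows of Csn1s2a (chr5:87774460-87774487, plus strand) and Csn2 (chr5:87699501-87699528, minus strand) because these caseins did not. Capitals mark the motif, which begins at position -100 from the RefSeq start in Csn1s1, at -93 in Csn2 and at 21 after it in Csn1s2a. A match describes the letters only.
Csn1s1: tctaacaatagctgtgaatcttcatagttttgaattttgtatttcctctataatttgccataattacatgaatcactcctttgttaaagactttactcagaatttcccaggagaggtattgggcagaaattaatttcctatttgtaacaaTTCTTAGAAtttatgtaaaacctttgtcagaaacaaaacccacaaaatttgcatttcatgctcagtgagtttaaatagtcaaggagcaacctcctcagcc
Csn1s2a: ttatagtgctTTCTTAGAAttacaatga
Csn2: tcacgtagacTTCTTGGAAttgaaggga

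A second set is shown because all tested interferon-stimulated genes were higher in the secretory cells of both BPK 4NQO libraries than in those of BPK vehicle. The letters GAAA followed, after 2 bases of any kind, by GAAA again, the core of the element bound by interferon-activated factors, were searched on both strands. They were found in 8 of 13 interferon-stimulated genes and 10 of 13 interferon-gamma-induced genes with a promoter entry, against 3.44% of all promoters, and in 1 of 14 milk protein genes. Capitals mark the match, overlapping matches included, in Isg15 (chr4:156200830-156200941, minus strand), Ifit1 (chr19:34640740-34640858, plus strand, matched as its reverse complement) and Cxcl10 (chr5:92349048-92349138, minus strand).
Isg15: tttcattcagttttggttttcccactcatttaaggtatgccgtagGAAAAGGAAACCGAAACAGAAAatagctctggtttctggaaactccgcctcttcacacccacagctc
Ifit1: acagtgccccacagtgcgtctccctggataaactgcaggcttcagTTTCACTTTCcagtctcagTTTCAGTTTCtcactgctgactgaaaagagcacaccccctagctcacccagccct
Cxcl10: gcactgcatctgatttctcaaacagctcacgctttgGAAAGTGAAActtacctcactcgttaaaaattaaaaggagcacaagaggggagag

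The libraries differed in depth, and BPK 4NQO replicate 2 stood apart. Median UMIs per secretory cell were 8245 for BPK vehicle, 4373 for PK 4NQO, 8055 for BPK 4NQO replicate 1 and 2718.5 in replicate 2, and median genes 2188, 1460.5, 2291.5 and 1090. The summed UMIs of the secretory cells, on which all gene tests rest, were 3179397, 3280382, 1868330 and 403945. Replicate 2 shared at most 2 cell barcodes with any other library, where other pairs shared 26 to 107. Among secretory cells, 1 barcode was shared between BPK vehicle and PK 4NQO and 2 between PK 4NQO and BPK 4NQO replicate 1. Lars2 was at 968 CPM (UMIs scaled to a total of 1000000 per library) in the secretory cells of replicate 2, against 12.3, 13.1 and 8.03 CPM in the other libraries, and at 985 CPM in the other kept barcodes of replicate 2. Each result below that rests on the BPK 4NQO pair is given for both libraries.

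Secretory cells were most frequent in PK 4NQO and least frequent in BPK 4NQO replicate 2. They made up 8.44% (95% exact Clopper-Pearson interval 7.82 to 9.10) of the kept barcodes of PK 4NQO and 3.97% (3.59 to 4.39) of BPK vehicle. The share was 2.94% (2.57 to 3.35) in BPK 4NQO replicate 1 and 1.55% (1.27 to 1.87) in replicate 2. None of the 4 intervals overlapped, and they cover counting error only. With keratin- or Epcam-positive (epithelial) barcodes as the denominator, the shares were 5.36% for BPK vehicle, 11.2% for PK 4NQO, and 4.27% and 3.53% for the BPK 4NQO pair. On that denominator the intervals of the BPK 4NQO libraries overlapped each other (3.73 to 4.86 and 2.91 to 4.25), and that of replicate 1 just overlapped that of BPK vehicle (4.84 to 5.91). Dissociation of the gland and the yield of each cell type set such shares, and their part in the differences was not tested.

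Because shallow cells lose rare transcripts, each barcode was also thinned to 2000 UMIs before the rule was applied. This kept 299 of the 373 secretory cells of BPK vehicle, 522 of 628 for PK 4NQO, and 182 of 220 and 56 of 108 for the BPK 4NQO pair. With the barcodes that met the rule only after thinning, 654, 903, 362 and 103 barcodes were counted. Of kept barcodes with at least 2000 UMIs, the thinned shares were 8.51%, 17.0%, 6.19% and 2.48% in the same order. The order of the libraries was the same at equal depth. The mean log2 share of BPK 4NQO was lower by -0.89 than BPK vehicle (replicates alone -0.43 and -1.36) and by -1.98 than PK 4NQO (-1.52 and -2.44). The exact two-sided permutation test of the log2 shares gave p = 0.667 against BPK vehicle and p = 0.333 against PK 4NQO, and 0.333 is the smallest value that 1 library against 2 allows.

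**Figure D1:**
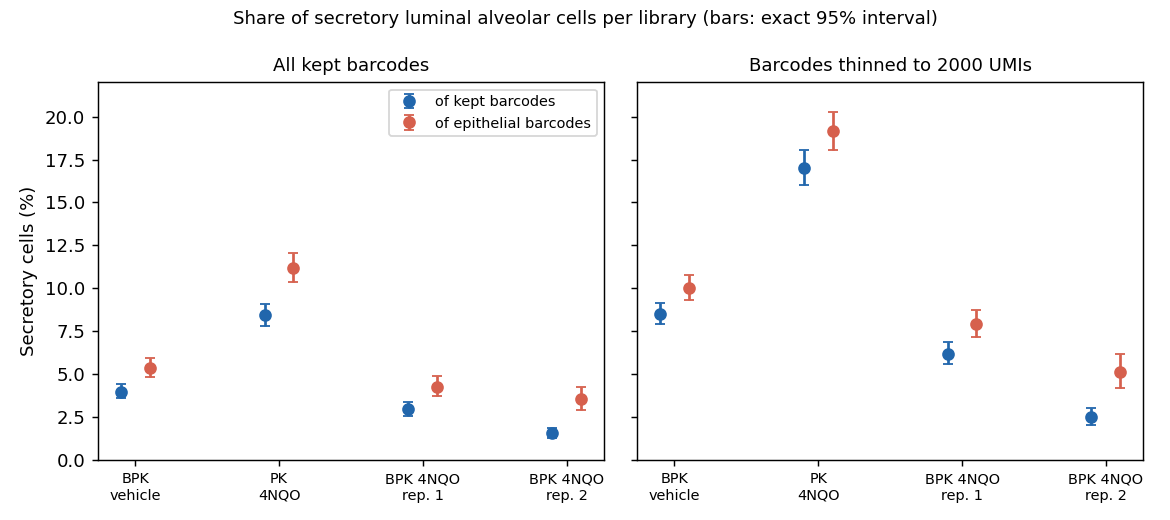
Share of secretory cells in each gland library, in percent of kept barcodes (blue) and of epithelial barcodes (red), with exact 95% intervals, for all kept barcodes (left) and after thinning to 2000 UMIs (right). PK 4NQO is highest in both panels, at 8.44% and 17.0% of kept barcodes, and BPK 4NQO replicate 2 is lowest, at 1.55% and 2.48%.

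The thresholds cut through continuous levels of Lalba and Csn1s1. Among barcodes that met every other condition (804, 928, 603 and 324 in the order BPK vehicle, PK 4NQO, BPK 4NQO replicates 1 and 2), 285, 234, 288 and 198 had no Lalba or Csn1s1 UMI at all. Just inside the threshold, at 3 to 4 CP10k, lay 44, 30, 33 and 10 cells. Just outside it, at 2 to 3 CP10k, lay 52, 39, 36 and 8. Their summed Csn3, Trf and Wfdc18 had medians of 135, 108, 142 and 87.9 CP10k inside and 116, 113, 151 and 74.9 CP10k outside. The limit on Prlr removed 63.4%, 61.8%, 63.9% and 68.7% of the barcodes that had passed the milk thresholds without Ptprc or Pecam1. The limit on mitosis genes then removed 70, 27, 8 and 1 of the remaining cells.

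The cells carried luminal keratins and little of the basal ones. Luminal Krt8 stood at 2177, 2104, 2253 and 3629 CPM in the 4 libraries and Krt18 at 4187, 4137, 4081 and 3117 CPM. Basal Krt5 was at 11.6, 9.75, 6.96 and 29.7 CPM and Krt14 at 29.6, 70.7, 56.7 and 19.8 CPM, where basal cells of the same libraries held 2231 to 3933 CPM of Krt14. In fibroblasts, which should lack milk transcripts, 0 of 480, 282, 293 and 931 cells passed both milk thresholds, with exact upper 95% bounds of 0.766%, 1.30%, 1.25% and 0.395%. A Lalba UMI was found in 4, 4, 5 and 6 of these fibroblasts (median 2228.5, 1461, 2943 and 3847 UMIs) and in 94.9%, 91.6%, 95.9% and 88.0% of secretory cells. Scrublet, which marked the most doublet-like barcodes of each library, marked 6.43%, 6.05%, 4.55% and 8.33% of secretory cells, near the 5.57% to 7.51% it marked over all kept barcodes. These cells were kept.

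Among the genes that set the secretory cells apart, several outside the rule encode secreted or alveolar proteins. Genes with at least 100 CPM in the secretory cells of each library were ranked by the smallest of the 4 within-library ratios of CPM to all other kept barcodes, so that lower genes such as Csn2 could not enter. The leading rule genes were Lalba (at least 5.00-fold in every library), Csn1s1 (3.94) and Csn3 (3.55), followed by Trf (3.29). Spp1, encoding the secreted phosphoprotein osteopontin, ranked next to them at 3.88, with 3542, 3450, 3643 and 2386 CPM. C530043A13Rik reached 3.42. After these came Cbr2 (2.83), the peptide hormone gene Cck (2.82), the proton pump subunit Atp6v1b1 (2.81), the siderophore-binding Lcn2 (2.80), Plb1 (2.71), Plet1 (2.67), the folate receptor Folr1 (2.66), the alveolar regulator Elf5 (2.53) and the milk fat globule gene Btn1a1 (2.49). The same cells were chosen by milk genes, so these ratios are descriptive. Elf5 varied little between libraries, at 204, 198, 201 and 228 CPM, and Folr1 likewise at 193, 188, 192 and 173 CPM.

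Milk genes were not at one level across the libraries, and 3 caseins and Ltf varied most. Lalba was at 1085 CPM for BPK vehicle, 1804 for PK 4NQO, and 1331 and 1587 for the BPK 4NQO pair. Csn1s1 was at 318, 1203, 244 and 225 CPM, so PK 4NQO lay far above the other libraries. Csn1s1 was detected in 53.3% of PK secretory cells (49.4 to 57.3) against 35.4% in BPK vehicle (30.5 to 40.5), 12.7% in BPK 4NQO replicate 1 (8.63 to 17.9) and 27.8% in replicate 2 (19.6 to 37.2). The libraries differed in depth, and its part in these shares was not tested. These genes chose the cells, and their levels carry no test.

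Csn2 (beta casein), which the rule did not use, was also highest in PK 4NQO. It stood at 51.6 CPM for BPK vehicle, 494 for PK 4NQO, and 78.1 and 86.6 for the BPK 4NQO pair. A Csn2 UMI was found in 5.09%, 14.5%, 2.73% and 13.0% of all secretory cells. At 2000 UMIs the shares were 2.46% (1.13 to 4.62), 11.7% (9.15 to 14.6), 2.35% (0.766 to 5.39) and 1.47% (0.0372 to 7.92). The interval of PK 4NQO lay above those of the other libraries at 2000 UMIs. In replicate 2 this leaves out 40 of 108 cells as too shallow, and its cells richest in Lalba and Csn1s1 had a median of 1898 UMIs, under that depth. The intervals compare cells of single libraries, not conditions. In fibroblasts the Csn2 share was 0.417%, 0% (exact upper bound 1.30%), 1.37% and 0.215%, and the intervals of the BPK libraries at 2000 UMIs overlap those of their fibroblasts. Csn1s2a was at 73.6, 357, 24.1 and 230 CPM, the value of replicate 2 resting on 93 UMIs in 15 cells. The share of cells with a Csn1s2a UMI was 17.2%, 19.1%, 15% and 13.9%, and 7.38%, 11.3%, 4.69% and 4.41% at 2000 UMIs, and these shares of the replicates lay closer together than their levels. Wap, the whey acidic protein of late pregnancy and lactation, was near 0 at 3.77, 3.66, 2.14 and 2.48 CPM, and Glycam1 had no UMI in any secretory cell.

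Other secreted genes had their own patterns. Csn3 was at 5346, 6274, 7858 and 5513 CPM, Trf at 6404, 7891, 8910 and 4567, and Wfdc18 at 3001, 4139, 2287 and 2765. Ltf was at 379, 563, 808 and 3592 CPM, and the high value belonged to replicate 2 alone. Cel, the bile salt-activated lipase of milk, was at 40.6, 39.0, 13.4 and 14.9 CPM, lower in both BPK 4NQO libraries than in either other library. The Cel values rest on 129, 128, 25 and 6 UMIs. Ltf and Cel were tested in the group comparisons, where no gene passed. Csn3, Trf and Wfdc18 chose the cells, and their levels carry no test.

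**Figure D2:**
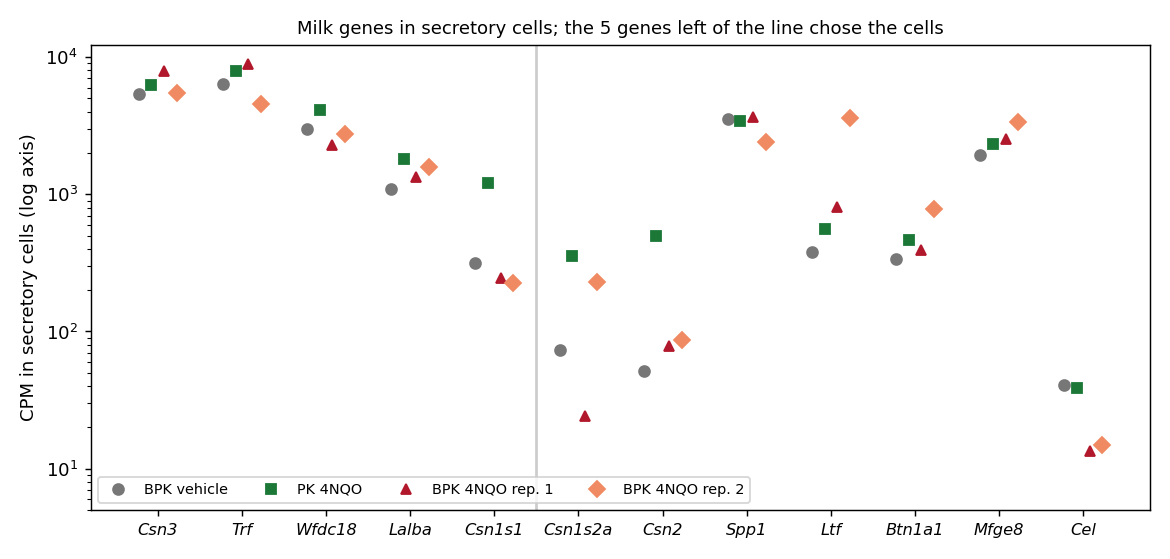
CPM (log axis) of 12 milk genes in the summed secretory cells of each library, 1 point per library. Csn1s1, Csn1s2a, Csn2 and Ltf are spread most, with PK 4NQO highest for the caseins at 1203, 357 and 494 CPM and BPK 4NQO replicate 2 for Ltf at 3592, while Csn3, Spp1 and Mfge8 lie close together.

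Within each library the secretory cells were ranked by Lalba plus Csn1s1 and divided into 3 groups of equal size, of 36 (BPK 4NQO replicate 2) to 210 cells. Other milk genes followed this ranking unevenly. Csn2 was at 13.5 CPM in the low and 157 in the high group of BPK vehicle, 24.7 and 1451 in PK 4NQO, 3.11 and 149 in BPK 4NQO replicate 1 and 10.9 and 346 in replicate 2. Csn1s2a was at 23.4 and 196 CPM, 19.2 and 1065, 20.2 and 47.7, and 5.46 and 507. Both caseins were thus higher in the high than in the low group of each of the 4 libraries. In BPK 4NQO replicate 1 only 6 of 220 cells had a Csn2 UMI, and Csn1s2a rested on 45 UMIs.

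Spp1 also went with the ranking, at 2447 CPM in the low and 5509 in the high group of BPK vehicle, 2326 and 5146 in PK 4NQO, 2508 and 5916 in BPK 4NQO replicate 1 and 1234 and 3201 in replicate 2, whose middle group was at 3425. Folr1 went from 152 to 264 CPM, 146 to 236, 152 to 257 and 120 to 297. Identity genes were flatter. Elf5, slightly higher in each high group, was at 193 and 213, 178 and 213, 186 and 220, and 207 and 247 CPM, and Krt8 at 2149 and 2208, 2133 and 2071, 2273 and 2289, and 3996 and 3645. Wfdc18, one of the rule's genes, showed no common direction, at 2758 and 3403, 4416 and 4139, 2276 and 2300, and 3287 and 2990 CPM. The high groups of BPK vehicle and of both BPK 4NQO libraries were shallower than the low groups (median 5613.5 against 9049 UMIs, 5872 against 8588 and 1898 against 4262), and PK 4NQO was nearly even (3984 against 4241.5). The part of depth in these patterns was not tested.

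**Figure D3:**
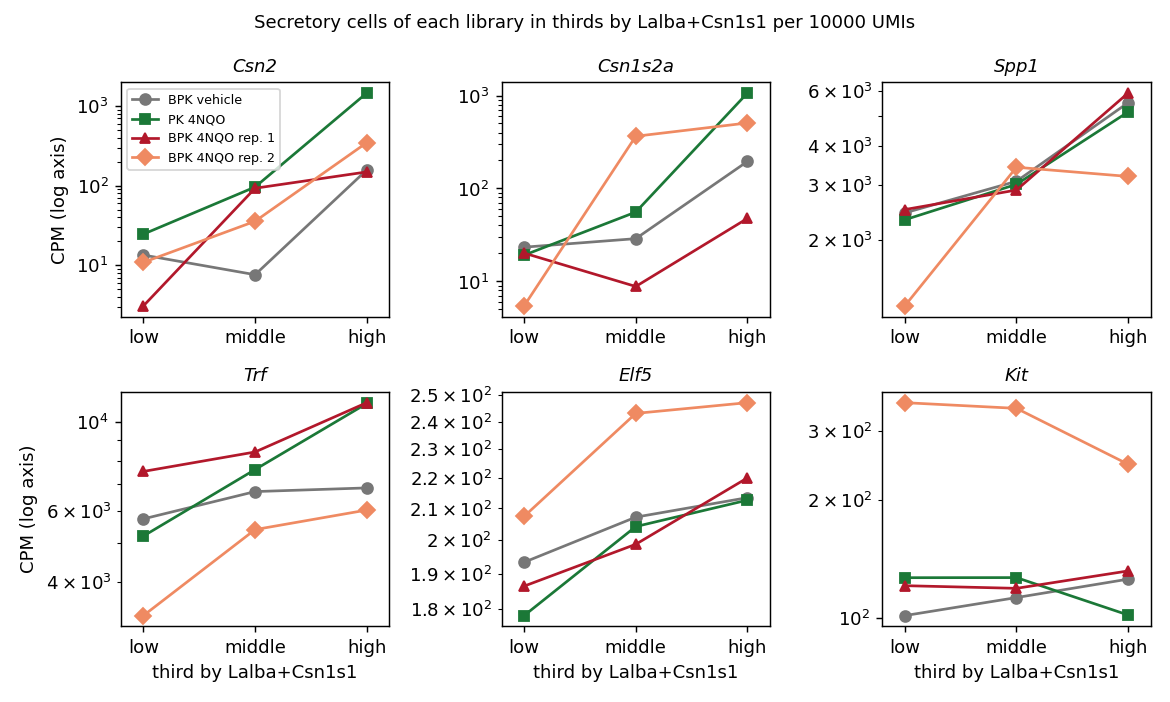
CPM (log axes) of 6 genes in secretory cells grouped by Lalba plus Csn1s1 into low, middle and high, 1 line per library. Csn2 and Csn1s2a are higher in the high than in the low group of every library, from 13.5 to 157 CPM of Csn2 in BPK vehicle and 24.7 to 1451 in PK 4NQO, while Elf5 stays within 178 to 247 CPM.

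Most barcodes with milk transcripts also carried Prlr, and those cells differed from the secretory cells chosen here. They numbered 617, 997, 393 and 230 in the 4 libraries, against 373, 628, 220 and 108. Areg, the estrogen-responsive growth factor, was at 634, 603, 741 and 1126 CPM in them and at 27.1, 26.5, 18.2 and 54.5 CPM in the secretory cells. Cited1 was at 291, 313, 329 and 169 CPM against 18.2, 22.6, 8.03 and 4.95, and Pgr, the progesterone receptor, at 42.1, 62.3, 83.3 and 236 against 1.57, 3.05, 3.21 and 14.9. The hormone-sensing genes were thus low in the secretory cells beyond the one gene, Prlr, that excluded them.

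The Prlr-carrying milk cells still held Csn3 at 3449, 3542, 4813 and 3556 CPM, Elf5 at 144, 135, 149 and 156 CPM and Spp1 at 2195, 1995, 2223 and 1941 CPM. They were deep, with medians of 13112, 9286, 13788 and 8250.5 UMIs, above those of the secretory cells. Scrublet marked 9.08%, 6.32%, 3.82% and 5.22% of them, a share like that of the secretory cells. Whether they are cells of mixed identity or droplets that held cells of both kinds was not tested.

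Luminal cells with Kit or Aldh1a3 (progenitor markers) outside the secretory set, chosen with no limit on milk transcripts, numbered 202, 130, 110 and 113. The secretory cells kept part of that profile, with Kit at 113, 119, 124 and 329 CPM against 268, 244, 295 and 423, and Cd14 at 471, 537, 371 and 376 CPM against 413, 312, 333 and 247. Lalba was at 111, 67.9, 39.4 and 39.6 CPM in the Kit or Aldh1a3 cells, and Spp1 at 1250, 225, 197 and 673. In the opposite direction Wfdc18 was at 8035, 8918, 5969 and 4509 CPM in them, above its level in the secretory cells of every library. Ltf was likewise higher there in the first 3 libraries (1788, 1923 and 1962 CPM) but not in replicate 2 (2657 against 3592). The Kit or Aldh1a3 cells held markers of other lineages, more so in BPK 4NQO. Basal genes summed to 367, 497, 890 and 1346 CPM in them and fibroblast genes to 98.0, 30.9, 160 and 4060 CPM, and Areg reached 236 CPM in replicate 1.

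**Figure D4:**
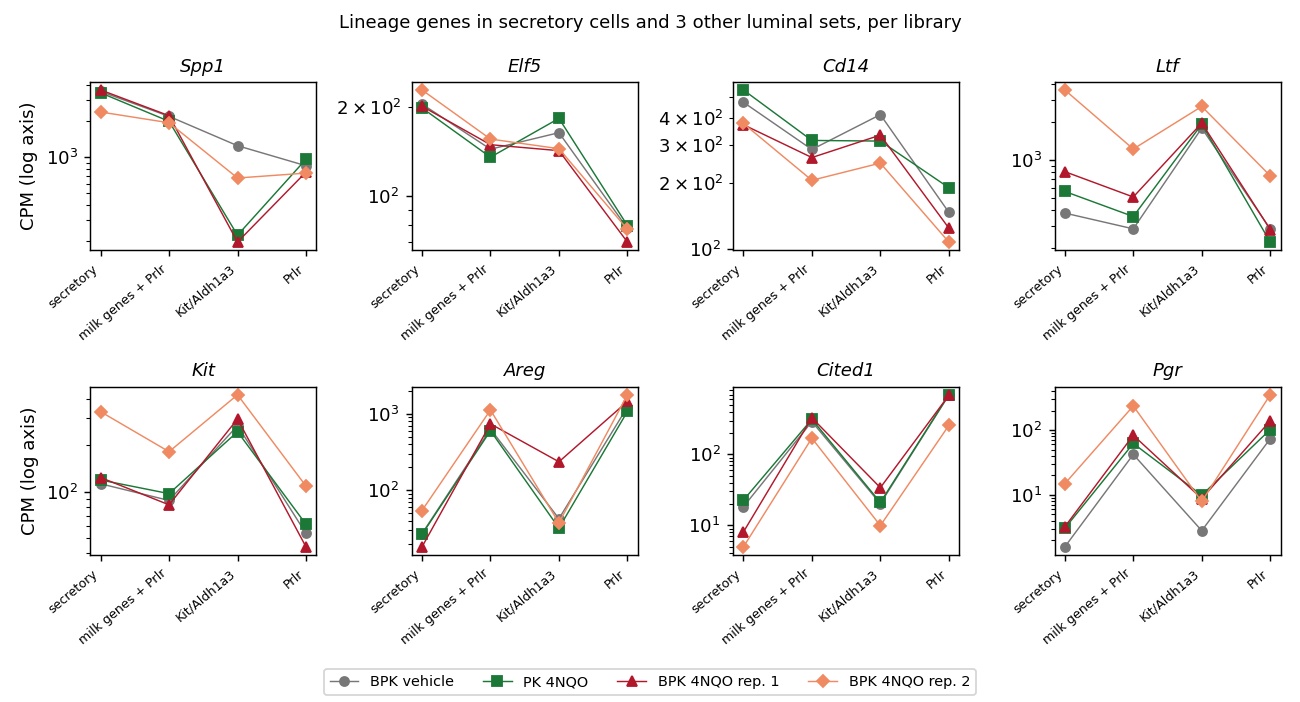
CPM (log axes) of 8 lineage genes in secretory cells, in cells with milk transcripts and Prlr, in Kit or Aldh1a3 cells and in Prlr cells, 1 line per library. Areg, Cited1 and Pgr are low in the secretory cells (Areg 18.2 to 54.5 CPM) and high in the cells with Prlr (603 to 1126 CPM in those with milk transcripts), while Spp1 and Elf5 are highest in the secretory cells.

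The first group comparison set BPK 4NQO against BPK vehicle, which asks how the secretory cells of Brca1 wt/flox glands differ after the carcinogen. Interferon and antigen presentation genes were higher in both BPK 4NQO libraries with few exceptions, milk genes were divided, and no single gene passed the test. With edgeR's quasi-likelihood test on the summed UMIs, 0 of 10299 genes had an adjusted p under 0.05 (0.0% called), 74 had an unadjusted p under 0.05, and DESeq2 called 2, Iigp1 and Ifi27l2a. Without the barcodes marked by scrublet edgeR called 9. The test had 1 residual degree of freedom, from the BPK 4NQO pair, and the single BPK vehicle library is assumed to vary like it. Over 9 other settings the number of calls ran from 0 to 34. As a background for the counts below, 35.8% of the genes tested were above BPK vehicle in both BPK 4NQO libraries and 19.3% below it, with a median log2 fold change of 0.01. A gene could enter the test on the strength of 1 library, so counts over tested genes favour genes that are high somewhere.

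Of 19 interferon-stimulated genes in the files, the antiviral response set, 16 were tested and all 16 were above BPK vehicle in both BPK 4NQO libraries, with a median log2 fold change of 2.72 (the same with Ifit3, which had no UMI in BPK vehicle, at its bound of 3 UMIs per library) and 13 with an unadjusted p under 0.05. Ifi27l2a was at 17.3 CPM for BPK vehicle, 132 for PK 4NQO, and 341 and 220 for the BPK 4NQO pair, a log2 fold change of 3.88 (SE 0.83, edgeR adjusted p 1). Irf7, the transcription factor that amplifies interferon, was at 17.0, 74.4, 242 and 124 CPM (3.30, SE 0.87, edgeR adjusted p 1). Both were lowest in BPK vehicle and highest in BPK 4NQO replicate 1.

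Isg15, the ubiquitin-like modifier whose promoter is printed above, was at 23.3, 55.5, 113 and 139 CPM. Ifit1 was at 4.40, 23.5, 28.9 and 39.6 CPM and Cxcl10, the chemokine that draws T cells, at 6.29, 14.3, 61.6 and 44.6 CPM. In these 3 genes the libraries did not overlap, with BPK vehicle lowest, PK 4NQO next and both BPK 4NQO libraries above. Their log2 fold changes against BPK vehicle were 2.25 (SE 0.58), 2.74 (SE 0.58) and 2.95 (SE 0.64), all with an edgeR adjusted p of 1.

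Of 18 genes induced mainly by interferon gamma, 12 were tested, 11 were above BPK vehicle in both BPK 4NQO libraries and 1, Socs1, was below. Iigp1, a GTPase of the immunity-related family, was at 4.09, 18.9, 78.1 and 124 CPM, a log2 fold change of 4.40 (SE 0.68, edgeR adjusted p 1, range 0.00187 to 0.123 over 9 other settings). It was called in 8 of those 9 settings. Lars2, high in replicate 2 alone, was called in 7 of them. The number of settings therefore does not tell a difference of both replicates from one of replicate 2 alone. Gbp2 was at 14.5, 17.7, 72.3 and 61.9 CPM (2.07, SE 0.56, edgeR adjusted p 1, and 1.22 after thinning). Ubd, a ubiquitin-like gene, was at 1.57, 6.10, 41.2 and 7.43 CPM, with only 3 UMIs in replicate 2.

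Genes of MHC class I, which presents peptides on all cells, were above BPK vehicle in both BPK 4NQO libraries in 11 of 14 cases and below in 0, with a median log2 fold change of 1.21. H2-K1 was at 385, 757, 1423 and 1159 CPM, H2-D1 at 686, 1333, 2355 and 1092 and B2m at 344, 1294, 2547 and 706. PK 4NQO lay above replicate 2 for H2-D1 and B2m. Class II genes, usually confined to antigen-presenting cells, were tested in 6 of 8 cases, with 4 above and 0 below and a median of 2.27. Cd74, the class II invariant chain, was at 10.4, 21.3, 87.8 and 146 CPM (log2 fold change 3.28, SE 0.65, edgeR adjusted p 1, and 2.01 after thinning) and H2-Ab1 at 6.29, 13.4, 37.5 and 44.6 CPM (2.51, SE 0.55, edgeR adjusted p 1).

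**Figure D5:**
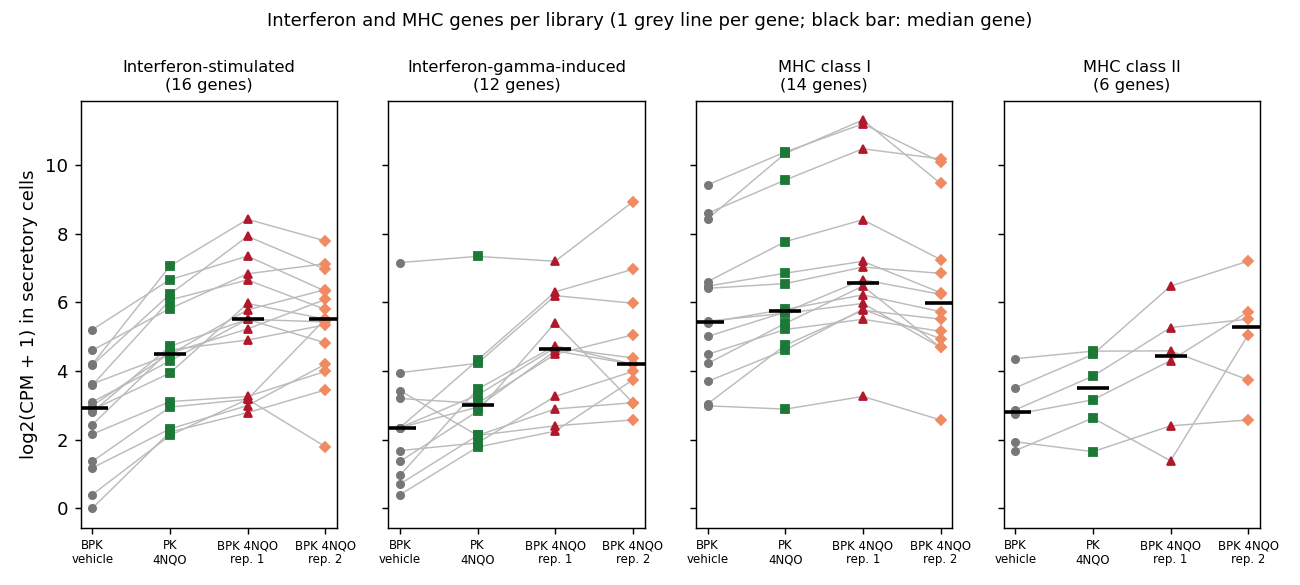
log2(CPM + 1) of the tested genes of 4 lists in the summed secretory cells of each library, 1 grey line per gene and a black bar at the median gene. All 16 interferon-stimulated genes lie higher in both BPK 4NQO libraries than in BPK vehicle, and PK 4NQO lies between them for 13 of the 16.

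Interferon transcripts were counted in more of the secretory cells in the 4NQO libraries. At 2000 UMIs per cell, 21.9% (17.7 to 26.4) of the secretory cells of BPK vehicle had at least 1 UMI of the 19 interferon-stimulated genes, against 49.7% (45.6 to 53.9) in PK 4NQO, 77.9% (71.8 to 83.3) in BPK 4NQO replicate 1 and 66.2% (53.7 to 77.2) in replicate 2. At least 2 UMIs were found in 5.46%, 24.2%, 54.0% and 39.7%. Thinning left out 7, 53, 7 and 40 shallower cells, and the unthinned shares with at least 1 UMI were 50.7%, 65.4%, 94.1% and 71.3%. No cell type compared here lacks these genes, so the share that free RNA would give was not measured. The intervals of BPK vehicle, PK 4NQO and BPK 4NQO replicate 1 did not overlap, and that of replicate 2 overlapped both PK 4NQO and replicate 1. All intervals in this paragraph compare cells of single libraries, not conditions. For class II genes the shares were 9.02% (6.29 to 12.4), 9.57% (7.29 to 12.3), 15.5% (10.9 to 21.1) and 29.4% (19.0 to 41.7), and those with at least 2 UMIs 1.09%, 1.57%, 5.63% and 2.94%.

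Interferon genes were also present outside the secretory cells. In all other kept barcodes they summed to 252, 582, 951 and 2402 CPM, and in fibroblasts to 1074, 1930, 2908 and 2206, against 158, 582, 1272 and 1013 CPM in the secretory cells. Macrophage and fibroblast markers were highest in the secretory cells of replicate 2, while endothelial genes, at 68.9, 79.6, 55.1 and 52.0 CPM, were not. The 6 macrophage genes had a UMI in 1.37%, 0.696%, 3.29% and 14.7% of secretory cells at 2000 UMIs, and summed to 5.35, 11.9, 11.2 and 94.1 CPM, with Adgre1 at 0 in every library. The 6 fibroblast genes had one in 5.19%, 3.65%, 4.69% and 20.6% and summed to 35.9, 90.5, 95.3 and 807 CPM, and all 6 were above BPK vehicle in both BPK 4NQO libraries, with a median log2 fold change of 3.30. Without the barcodes marked by scrublet, the log2 fold change of Dcn went from 3.71 to 1.12 and that of Col1a2 from 3.77 to 2.18. Their part in the interferon and class II levels of replicate 2 was not tested. In all other kept barcodes class II genes summed to 590, 709, 1044 and 4405 CPM.

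The secretory cells were not the strongest carriers of this signal. The interferon-stimulated genes summed to 158, 582, 1272 and 1013 CPM in them and to 218, 1194, 1792 and 1322 CPM in the Kit or Aldh1a3 cells of the same libraries. Class II genes summed to 47.8, 73.2, 173 and 295 CPM against 49.3, 177, 1603 and 319. Both sums were lower in the secretory cells in 4 of 4 libraries, by a mean log2 difference of -0.59 (SD 0.30, n = 4) and -1.15 (SD 1.47, n = 4). The exact two-sided sign-flip permutation test gave p = 0.125 for each, the smallest value that 4 libraries allow. The part of the fibroblast and basal transcripts in the Kit or Aldh1a3 cells was not tested.

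The second comparison set BPK 4NQO against PK 4NQO, which asks how these cells differ between the Brca1 genotypes after the carcinogen. Without a PK vehicle library, a difference in response cannot be told apart from one present without 4NQO. Csn2 and Csn1s2a, which did not choose the cells, were lower in both BPK 4NQO libraries. Most interferon genes were higher, and again no gene passed. edgeR's quasi-likelihood test gave 0 of 10299 genes with an adjusted p under 0.05 (0.0% called) and 38 with an unadjusted p under 0.05, and DESeq2 called 0. Without the barcodes marked by scrublet edgeR called 9. These 9 were the muscle genes Acta1, Mylpf, Pvalb, Tnnc2, Tnni2 and Tnnt3, called lower, and Lars2, AY036118 and Gm10062, called higher. Of these, Lars2 was high in replicate 2 alone. Over 9 other settings there were 0 to 19 calls. Both BPK 4NQO libraries were above PK 4NQO for 33.6% of the genes tested and below it for 21.5%. This comparison shares the BPK 4NQO libraries with the first, so these comparisons are not independent, and animal, library and genotype cannot be told apart with 1 PK library.

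Of 18 milk protein genes, 14 were tested, and 5 of these had chosen the cells and are left out of the counts here. Of the other 9, 4 were below and 2 above PK 4NQO in both BPK 4NQO libraries, with a median log2 fold change of -0.31. Csn2 was lower by -2.72 on the log2 scale (SE 0.56, unadjusted p 0.00752, edgeR adjusted p 1, and 0.0318 to 1 over 9 other settings). The difference was -1.20 after thinning, with the cells chosen again by the rule, and -1.68 with no limit on Prlr. Csn1s2a was lower by -1.77 (SE 1.27, edgeR adjusted p 1), by -0.49 after thinning, and by -3.90 and -0.88 in replicates 1 and 2 alone. Cel was lower by -1.60 (SE 0.48, edgeR adjusted p 1) and by -1.03 with no limit on Prlr. The 2 above were Ltf and Mfge8, the lipid-globule protein lactadherin, at 1935, 2316, 2533 and 3384 CPM. Against BPK vehicle the same 9 genes had 6 above and 1 below with a median of 0.43. PK 4NQO was the highest of the 4 libraries for 3 of the 9, Csn1s2a, Csn2 and Lao1, and for 15.4% of all genes tested.

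For interferon-stimulated genes 13 of 16 were above PK 4NQO in both BPK 4NQO libraries and 0 below (median log2 fold change 0.94), and for interferon-gamma-induced genes 11 of 12 (median 1.40). Class I genes were above in 5 of 14 cases and below in 0 (median 0.26), and class II genes in 4 of 6 (median 1.25). Iigp1 was higher by 2.24 (SE 0.58, edgeR adjusted p 1) and Cd74 by 2.27 (SE 0.61, edgeR adjusted p 1). PK 4NQO was itself above BPK vehicle for 16 of 16 interferon-stimulated genes, where 54.0% of all genes were. For 13 of the 16 (81.25%, against 13.0% of all genes) the order was BPK vehicle, PK 4NQO, then both BPK 4NQO libraries. PK 4NQO and BPK vehicle differ in both genotype and treatment, so their difference assigns nothing to either.

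Most genes called lower in BPK 4NQO than in PK 4NQO under other settings were muscle genes. Apart from Csn2, called in 1 setting, these included Acta1 and Tnnc2, of striated muscle, which were called in 7 of the 9 settings. In the secretory cells of PK 4NQO, 134 of 142 Acta1 UMIs sat in 1 barcode, and 141 of 145 Tnnc2 UMIs sat in 1 barcode. The level of each gene in PK 4NQO thus rests mostly on 1 barcode. Whether the genes share that barcode was not checked.

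Metabolic programs of the secretory cells showed no uniform difference. Of 19 milk fat genes tested, 5 were above and 8 below BPK vehicle in both BPK 4NQO libraries (median log2 fold change -0.32), and 6 and 8 were above and below PK 4NQO (median -0.10). Plin2, which coats the milk fat droplet, was at 299, 454, 245 and 295 CPM, highest in PK 4NQO, and Xdh, needed for droplet secretion, at 26.1, 55.5, 60.5 and 69.3 CPM, lowest in BPK vehicle. Of 13 genes for lactose synthesis and ion transport, 7 were above and 1 below BPK vehicle (median 0.20). Lalba, which helped choose the cells, is 1 of the 7.

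Of 17 alveolar regulators, 6 were above and 2 below BPK vehicle (median 0.34). Cebpb, a transcription factor needed for alveolar development, was one of the 2 below, at 1697, 1224, 1021 and 676 CPM (log2 fold change -1.15, SE 0.76, edgeR adjusted p 1). Stat5a was at 35.5, 25.3, 25.2 and 34.7 CPM. Of 10 alveolar progenitor genes, 4 were above and 1 below. For Kit and for Aldh1a3 (62.0, 81.4, 64.2 and 136 CPM) the replicates differed from each other by more than replicate 1 did from BPK vehicle.

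Damage and stress programs did not move as a block. Of 17 p53 target genes, 5 were above and 3 below BPK vehicle in both BPK 4NQO libraries (median -0.07), and Cdkn1a, the cell cycle inhibitor, was at 158, 171, 223 and 156 CPM. All groups carried Trp53 flox/flox. Of 12 NRF2 targets, which answer oxidative and quinone stress, 4 were above and 1 below (median 0.42), and Txnrd1, a thioredoxin reductase, was at 76.1, 55.2, 55.1 and 208 CPM, high in replicate 2 alone. Of 14 genes for protein folding in the secretory pathway, 7 were above and 1 below (median -0.04), with the chaperone Hspa5 at 336, 439, 632 and 1285 CPM. Of 13 genes of STAT3-driven involution, the regression of the gland after weaning, 6 were above and 2 below (median 0.14), and Igfbp5 was at 2484, 2500, 3303 and 5625 CPM.

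Innate defense genes ranged from abundant to near 0. Of 12 tested, 4 were above and 2 below BPK vehicle (median 0.01). Lcn2 was at 2441, 2633, 3005 and 3112 CPM and Cxcl1, a neutrophil chemokine, at 2584, 1708, 2872 and 2023 CPM, while Saa1 was at 5.35, 5.18, 8.03 and 0 CPM. Of 10 hormone-sensing genes tested, 5 were above and 3 below BPK vehicle. Prlr, which the rule limited, is 1 of the 3 below. The largest difference was in Ly6a, which interferon also induces, at 24.2, 53.4, 153 and 131 CPM (log2 fold change 2.39, SE 0.62, edgeR adjusted p 1). Of 11 basal genes, 5 were above and 2 below, and the basal list summed to 237, 401, 321 and 490 CPM, where basal cells held 19279 to 22835 CPM.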

How the data were processed

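Deposited files hold UMI counts for 27998 genes in each cell barcode, made by the authors with Cell Ranger on mm10, per the submitters' processing notes and the file headers. PK 4NQO was processed with version 3.0.2 and every other library with 5.0.1, so this step also differs between the genotypes compared. The options of cell calling were not given in the sources used here. Doses of 4NQO were left out because their unit is in doubt. The cells and gene lists were chosen with earlier results of these data known. Each library's raw counts were summed over its secretory cells. edgeR 4.0.16 (limma 3.58.1, R 4.3.3) was run with filterByExpr, TMM scaling, the quasi-likelihood test in 1 model of the 4 gland libraries, and Benjamini-Hochberg adjustment over 10299 genes at 0.05. The SE was obtained by dividing the size of each log2 fold change by the root of its F statistic. DESeq2 was an alternative. The scripts were tested on simulated data. Scrublet ran in scanpy 1.11.5, marking 0.8% per 1000 barcodes. Kit or Aldh1a3 cells, Prlr cells, basal cells and fibroblasts were taken by thresholds on their markers. Genes were to be named if called, or as the up to 4 most abundant of each of 23 lists. Because none was called, further examples were chosen after their values were seen. Other settings were RLE factors, no filter, only the compared libraries, no scrublet doublets, Lalba and Csn1s1 at 10 CP10k, thinning to 2000 UMIs, few basal UMIs, each replicate left out, and no limit on Prlr, the last chosen after seeing the data. Depth per library was 27383717 to 64169843 UMIs. Promoters are from RefSeq (GRCm38.p6).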

Additional observations from a re-analysis of the deposited data

How the results depend on the processing

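Calls depended on the setting. For BPK 4NQO against BPK vehicle the 0 calls became 2 with DESeq2, 13 with no filter, 15 with only the compared libraries, 9 without scrublet doublets, 5 with Lalba and Csn1s1 at 10 CP10k, 3 after thinning to 2000 UMIs, 15 in cells with few basal UMIs and 34 with no limit on Prlr, and stayed 0 with RLE factors. Against PK 4NQO they became 5 with RLE factors, 12 with no filter, 12 with only the compared libraries, 9, 6, 1, 14 and 19 in the same order, and stayed 0 with DESeq2. The prior degrees of freedom of edgeR were 3.17 as reported, 28.7 with RLE factors and infinite in its other settings. The log2 ratio of Lalba plus Csn1s1 to BPK vehicle was 0.27, and 0.089 thinned and 0.10 with no limit on Prlr (0.17 to 0.37 leaving out a replicate). To PK 4NQO it was -0.83, and -0.68 thinned and -0.64 at 10 CP10k (-0.93 to -0.73). The share ratios ran from -1.36 to -0.43 and from -2.44 to -1.52 leaving out a replicate. Lars2 turned to -0.65 against BPK vehicle and -0.71 against PK 4NQO without replicate 2, and was 5.97 and 5.91 without replicate 1. Of 341 values for 31 fold changes of single genes, 275 kept their side with no new call, 64 passed the threshold in place of missing it and 2 reversed. Values with a replicate left out had no test, so only their side was compared. Among the 64, Lars2 gave 7 in each comparison. Acta1 and Tnnc2 gave 7 each against PK 4NQO, and the fibroblast genes Col1a2 and Dcn 4 and 3 against BPK vehicle. The others were in interferon or class II genes, Iigp1 with 8 the most, and in Csn2. The counts of interferon-stimulated genes above BPK vehicle ran from 14 to 16, interferon-gamma-induced 10 to 11, class I 10 to 14, and milk genes below PK 4NQO, those that chose the cells included, 6 to 10. Depth limits replicate 2 most, where 40 of 108 cells had under 2000 UMIs. No paired analysis was possible because only BPK 4NQO has more than 1 library, so no groups share 2 replicate numbers.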

Other observations

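The tumor library, to which the rule was not applied for the report, held 5 barcodes that would meet it, of 2290 kept barcodes, with a median of 9675 UMIs. Cck, the cholecystokinin gene, was among the genes that set the secretory cells apart in every library, at 375, 409, 306 and 163 CPM against 88.6, 145, 61.4 and 23.6 CPM in the other kept barcodes. Rb1 was at 149, 184, 215 and 245 CPM in the secretory cells and 63.6, 75.5, 68.1 and 63.5 CPM in the others.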
